A study of Drosophila melanogaster with 2 samples.

Results

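The genes described here are cbt, Lk6, larp and tara, 4 of 13968 protein-coding genes on the chromosome arms of Drosophila melanogaster, each taken with 3 kb on either side of its body. They were chosen by the signal of their peaks in chromatin immunoprecipitation of a CG16779-eGFP fusion: in each region the strongest reproducible peak of the ranked peak list had no counterpart in the final, thresholded list. Reproducible here means an irreproducible discovery rate (IDR, the expected share of peaks at that rank that do not recur between a pair of peak sets) of at most 0.01, which is a −log10 of at least 2. The 4 regions held 24 such peaks of 2619 on the arms. Because the signal, the IDR and the missing counterparts chose the genes, these values are given as a description and no test was made on them.

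Whole embryos aged 8 to 24 hours came from a fly strain with an insertion that targets CG16779 and tags its product with green fluorescent protein. There was 1 group, of 2 biological replicates taken from separate biosamples of the strain, and the chromatin was pulled down with an antibody against GFP. Neither the promoter of the insertion nor the state of the endogenous gene was given in the sources used here, whole embryos mix all cell types, and the control library named in the labels was not analysed here. Read depth is unknown, since the lists hold no counts, and its precision cannot be stated. Each peak has a combined signal, taken from the list made of both replicates, and a signal in each replicate, all 3 in the peak caller's own units.

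The 4 genes act at different steps of gene expression. The product of cbt, cabut, is a zinc finger transcription factor of the family of the mammalian TGF-beta-inducible early genes, is needed for closure of the embryo's dorsal side and responds to dietary sugar. The tara product, Taranis, is the fly relative of the mammalian SERTAD proteins, was found through its genetic interaction with Polycomb and trithorax group genes, and acts with Cyclin A in sleep. Lk6 encodes a kinase of the MNK family, which phosphorylates the cap-binding translation factor eIF4E. The larp product, the fly LARP1, binds RNA and associates with the poly(A)-binding protein.

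The bases under the strongest peak of each gene are shown first, since these are the peaks that chose the genes. Sequences are the plus strand of the RefSeq copy of the release 6 assembly (dm6 coordinates), 5' to 3', over the whole peak, and capitals mark the 11 bases centred on the summit.

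cbt, chr2L:480961-481215: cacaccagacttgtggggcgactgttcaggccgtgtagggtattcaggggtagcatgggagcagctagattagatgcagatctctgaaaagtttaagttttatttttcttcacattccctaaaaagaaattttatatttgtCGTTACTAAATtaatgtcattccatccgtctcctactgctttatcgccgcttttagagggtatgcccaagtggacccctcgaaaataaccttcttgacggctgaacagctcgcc

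Lk6, chr3R:11760928-11761144: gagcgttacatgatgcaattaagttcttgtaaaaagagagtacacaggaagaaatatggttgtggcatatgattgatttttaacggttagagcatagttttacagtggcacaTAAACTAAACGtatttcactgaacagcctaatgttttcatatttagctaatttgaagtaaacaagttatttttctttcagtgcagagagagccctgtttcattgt

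larp, chr3R:28326485-28326701: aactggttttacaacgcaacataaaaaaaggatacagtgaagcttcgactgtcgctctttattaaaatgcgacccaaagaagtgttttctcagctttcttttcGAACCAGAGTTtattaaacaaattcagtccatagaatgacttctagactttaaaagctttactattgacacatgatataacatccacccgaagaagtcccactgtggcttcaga

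tara, chr3R:16224417-16224564: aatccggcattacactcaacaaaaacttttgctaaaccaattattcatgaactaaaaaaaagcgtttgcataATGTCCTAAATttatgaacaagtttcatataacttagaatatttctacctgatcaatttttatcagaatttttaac

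For contrast, the strongest peak in each region that did reach the conservative list is shown as the 101 bp around its summit, marked in the same way. The region of cbt had none.

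Lk6, chr3R:11756952-11757052: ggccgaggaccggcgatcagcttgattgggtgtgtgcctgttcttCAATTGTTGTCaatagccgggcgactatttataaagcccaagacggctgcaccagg

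larp, chr3R:28329318-28329418: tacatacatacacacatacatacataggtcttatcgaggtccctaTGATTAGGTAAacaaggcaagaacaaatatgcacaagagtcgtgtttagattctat

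tara, chr3R:16247749-16247849: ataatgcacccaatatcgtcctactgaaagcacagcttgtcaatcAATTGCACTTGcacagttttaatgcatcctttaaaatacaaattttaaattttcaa

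The strongest peaks of cbt, Lk6 and larp stood among the 20 highest in the genome. By combined signal they ranked 5th, 10th and 19th of 2619, at 823, 690 and 528, against a median of 84.9 for all of them. The strongest peak of tara ranked 115th at 260. In the ranked list made of both replicates, 1.93% of 135475 peaks on the arms passed the IDR threshold. Of those that passed, 16 of the 24 in the 4 regions had no overlap of at least 1 bp with any peak of the conservative list, the thresholded list that belongs to the ranked list of both replicates. Over the genome 103 of 2619 had none (3.93%), and 102 (3.89%) had none in any of the 4 thresholded lists. Nothing is read from the higher share in the 4 regions (66.7%), which their choice fixed. Every one of the 16 was missing from all 4 thresholded lists, and the 8 others were in the conservative list and in that from pooled reads.

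**Figure D1:**
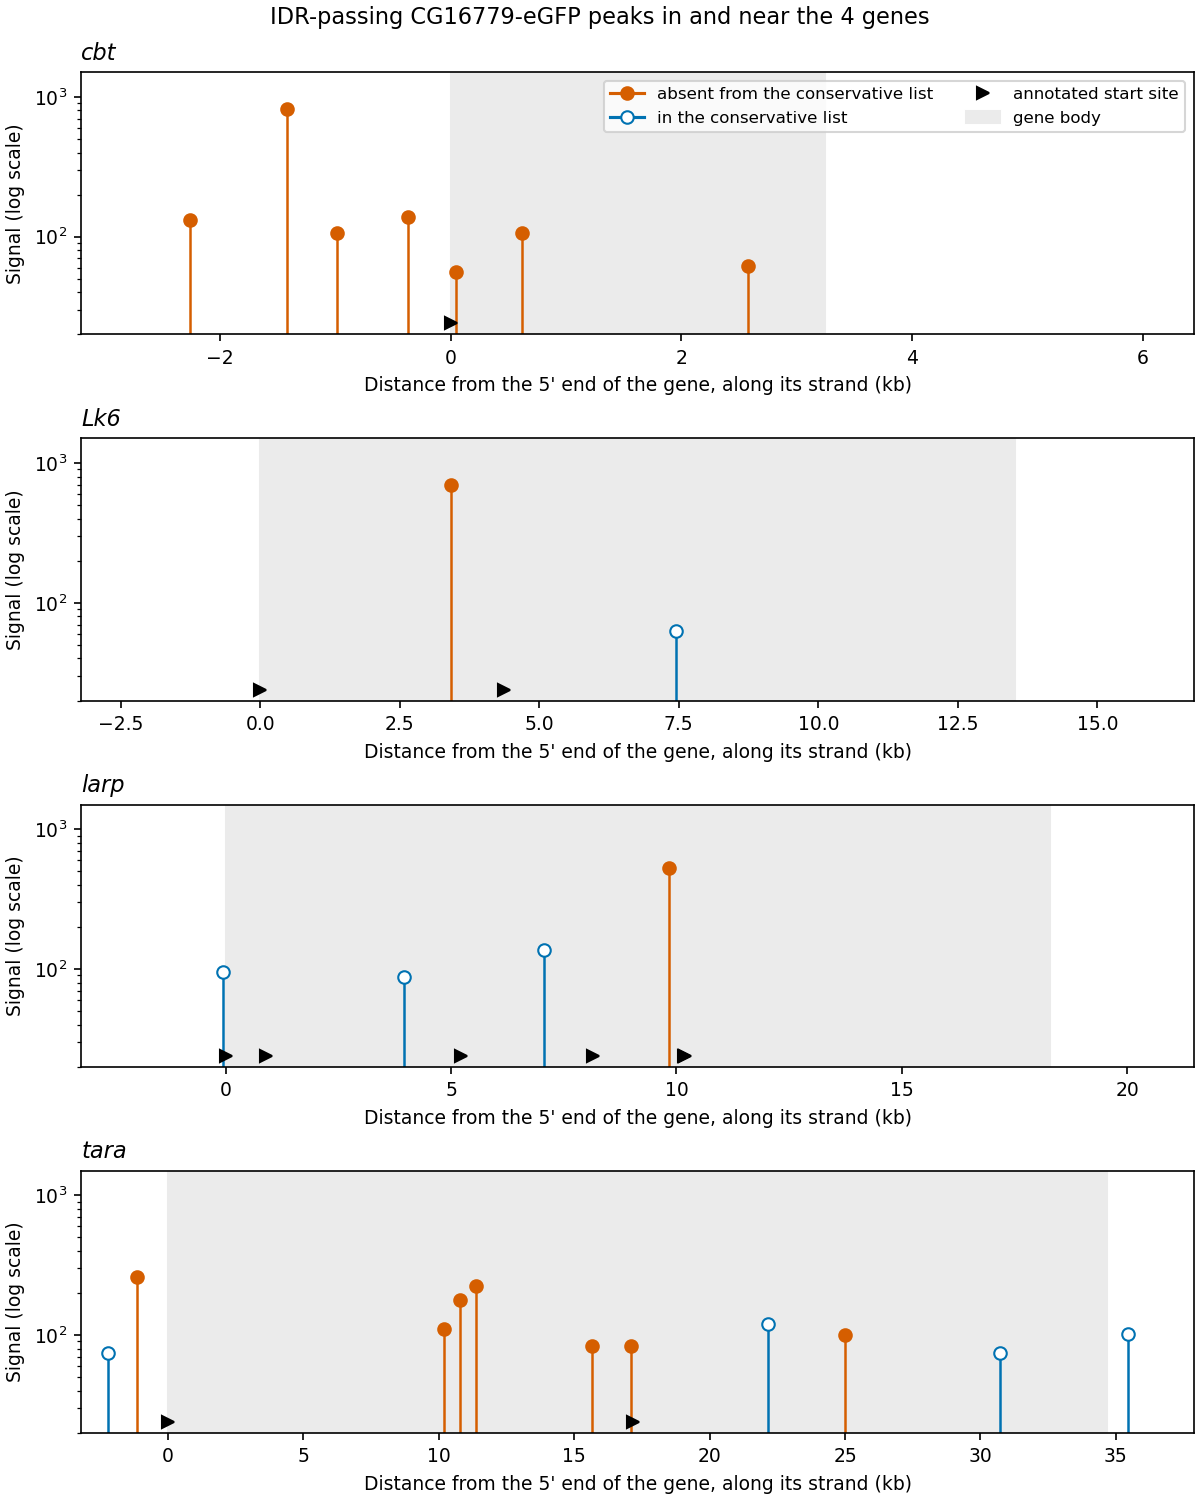
Combined signal (log scale) of the 24 peaks against the distance of the summit from the 5' end of the gene along its strand, in kb. Filled orange points are absent from the conservative list and open blue points are in it, grey marks the gene body and triangles mark annotated start sites. The tallest point of each gene is orange, at 823 for cbt, 690 for Lk6, 528 for larp and 260 for tara.

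At cbt (FBgn0043364, chr2L:476446-479688, minus strand) all 7 peaks were absent from the conservative list. The strongest, chr2L:480961-481215, had a signal of 425 in replicate 1 and 424 in replicate 2 (424 ± 0.109, SD, n = 2). It lay 1419 bp upstream of the only annotated transcription start site (TSS) of cbt. The whole stretch also lies in an intron of ush, which encodes U-shaped, a cofactor of GATA transcription factors, and a summit cannot be ascribed to either gene from its position. The next strongest by combined signal, 365 bp upstream of the TSS (chr2L:479908-480197), reached 43.5 and 94.1 in replicates 1 and 2, so the replicates differed 2.17-fold there, the widest gap of the 24. Its replicate 2 peak was shared with another ranked peak. The combined signal of the strongest was 5.94 times that of this one.

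The other upstream peaks of cbt lay 981 bp (chr2L:480653-480826) and 2260 bp (chr2L:481803-482092) from the TSS. The former had 90.7 and 87.0 in replicates 1 and 2, the latter 75.9 and 60.9. Within the gene, 2 summits fell in the 5' UTR, 51 and 623 bp downstream of the TSS, the second of them in an intron of another transcript. The first had 39.1 and 37.5 and the second 51.4 and 48.5 in replicates 1 and 2. A last summit fell in coding sequence 2577 bp downstream of the TSS (chr2L:476966-477255), with 32.5 and 30.6, and the TSS nearest to it, 891 bp away, was one of ush. These within-gene peaks were low in both replicates, under the upstream ones at 981, 1419 and 2260 bp. They overlapped the upstream peak at 365 bp, which had 43.5 in replicate 1, below the 51.4 of the second 5' UTR summit. The last one was also the nearest to the threshold among the peaks of cbt, with a −log10 IDR of 2.02, and the nearest peak that failed had 0.977 at a combined signal of 47.3.

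The peaks of cbt stood in the run with the most missing peaks. From the conservative summit at 470798 to that at 485859 on 2L, 15061 bp, all 8 peaks that passed the IDR threshold were absent from the conservative list. Of these, 7 belong to the region of cbt, and the remaining one lay at chr2L:472401-472504, 240 bp from a TSS of CG4297, with 87.0 and 96.5 in replicates 1 and 2. When missing peaks within 10 kb were joined, the 103 formed 58 runs, of which 20 held more than 1 peak and none held more than these 8.

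At tara (FBgn0040071, chr3R:16225651-16260329, plus strand), which had the most peaks of the 4 genes, 7 of 11 were absent from the conservative list. The strongest, chr3R:16224417-16224564, had 116 in replicate 1 and 145 in replicate 2 (131 ± 20.4, SD, n = 2) and lay 1157 bp upstream of the first TSS of tara. The nearest TSS of any gene was one of lncRNA:CR45643, 894 bp away. A kept peak (chr3R:16223289-16223578), 1060 bp further upstream and 39 bp from another TSS of that lncRNA, had only 42.5 and 37.3. Just outside the region, 3167 bp upstream of the gene, a kept peak (chr3R:16222392-16222591) had 286 and 240 (263 ± 32.4, SD, n = 2). Of these 3 neighbours the kept outer peak was the highest in both replicates and the kept inner one the lowest. On the side of the gene, the next kept summit lay 23305 bp away.

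The other missing peaks of tara were in its introns. A group of 3 lay 5808 to 6980 bp upstream of the second TSS. The highest of them, chr3R:16236863-16237152, had 120 and 98.9 in replicates 1 and 2, its neighbour chr3R:16236280-16236569 had 75.9 and 93.1, and the third had 58.9 and 41.6. Which of the strongest peak and the highest of this group was the larger depended on the replicate: replicate 1 gave 116 and 120, and replicate 2 gave 145 and 98.9. Near the second TSS, a missing peak 79 bp upstream had 45.8 and 43.5, and another 1524 bp upstream had 48.5 and 30.8. The last missing one lay 7847 bp downstream of that TSS, with 48.6 and 45.3.

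Kept peaks were interspersed among the missing ones along tara. A kept intronic peak, chr3R:16247654-16247943, with 42.8 and 71.8 in replicates 1 and 2, lay between the missing summits at 16242737 and 16250663. Its replicate 2 peak too was shared with another ranked peak. Further on, a kept intronic peak at chr3R:16256216-16256505 had 43.5 and 33.2, and one beyond the 3' end of the gene at chr3R:16260942-16261231 had 51.8 and 54.2. The TSS nearest to the last 2 of these was that of the neighbouring gene bor, 7734 and 3008 bp away. The missing peaks spanned 26169 bp in all. In replicate 1 the kept peaks had 42.5 to 51.8 and the missing ones 45.8 to 120, and in replicate 2 they had 33.2 to 71.8 and 30.8 to 145, so the 2 kinds overlapped in both replicates. Nearest to the threshold, a missing peak had a −log10 IDR of 2.40, and one that failed had 1.74 at a combined signal of 69.8.

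At Lk6 (FBgn0017581, chr3R:11750931-11764457, minus strand) a single peak was missing. It was chr3R:11760928-11761144, with a signal of 313 in replicate 1 and 369 in replicate 2 (341 ± 39.4, SD, n = 2). Its summit lay in an intron, 3412 bp into the gene and 966 bp upstream of the second of its 2 TSSs. The other peak of Lk6, also intronic (chr3R:11756857-11757146), reached the conservative list with 36.8 and 34.9. It lay 3077 bp downstream of the second TSS and 4043 bp from the missing summit. The combined signal of the missing peak was 10.9 times that of the kept one. A −log10 IDR of 2.40 put the kept peak nearest to the threshold, and the best peak that failed had 1.67 at a combined signal of 59.9.

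At larp (FBgn0261618, chr3R:28318162-28336440, minus strand) 1 of 4 peaks was missing, again the strongest. Chr3R:28326485-28326701 had 267 in each replicate (267 ± 0.114, SD, n = 2) and lay in an intron, 9847 bp into the gene and 329 bp upstream of one of its 6 TSSs. The other 3 peaks of larp were all in the conservative list. That at chr3R:28329223-28329512 had 84.5 and 65.8 in replicates 1 and 2 and lay 1085 bp upstream of a TSS, and that at chr3R:28332333-28332622 had 47.7 and 44.1, 1260 bp upstream of another. At the 5' end of the gene, 66 bp upstream of the first TSS, chr3R:28336361-28336650 had 50.2 and 37.0. The missing peak exceeded the 3 kept ones in both replicates, and its combined signal was 3.84 times that of the highest of them.

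The missing peak of larp stood by itself. The nearest conservative summit lay 2775 bp to one side, inside the gene, and 403627 bp to the other, with no other peak past the IDR threshold in between. Of the peaks of larp the lowest to pass had a −log10 IDR of 2.76, and the first to fail lay just under the threshold, at 1.98 with a combined signal of 67.0.

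In all 4 genes the strongest peak lay upstream of an annotated TSS of the gene, by 329 bp at larp, 966 bp at Lk6, 1157 bp at tara and 1419 bp at cbt. Only that of larp was within 500 bp of a TSS. Among the 24 peaks, 6 summits lay within 500 bp of any TSS and 5 within 500 bp of one of the gene itself, and 13 lay in its introns. The matching counts over all peaks past the IDR threshold are not given here, so no trait of the 24 is read from these. Other genes reach into the same regions, namely ush and MED15 at cbt, l(3)neo38, CG6923 and CG43062 at Lk6, asRNA:CR46104 and Gfat2 at larp, and bor and lncRNA:CR45643 at tara.

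**Figure D2:**
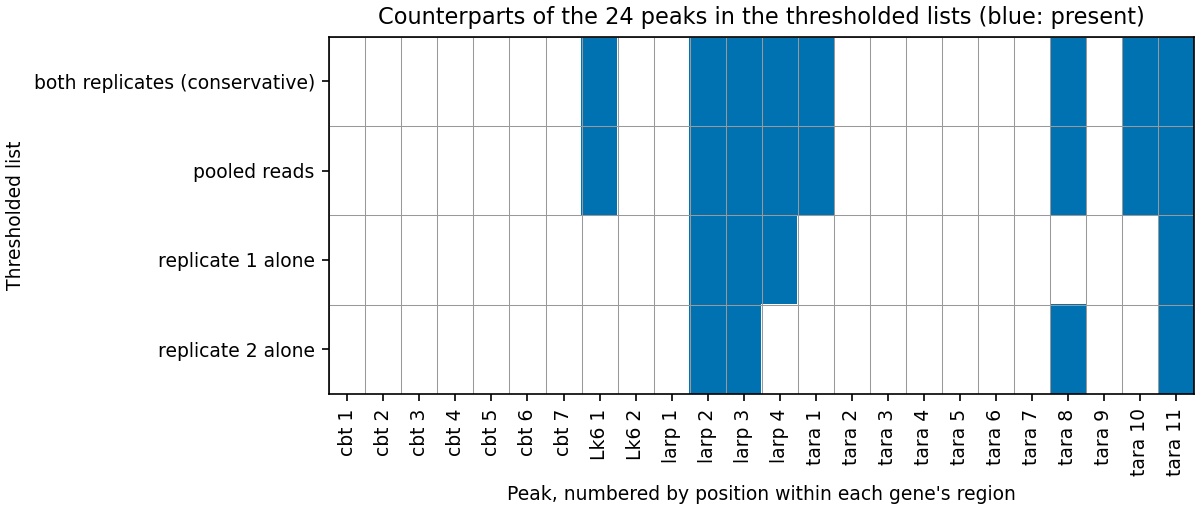
Presence of each of the 24 peaks (columns, numbered by position within each region) in the 4 thresholded lists (rows), where blue marks an overlap. The 7 peaks of cbt, peak 2 of Lk6, peak 1 of larp and 7 peaks of tara are white in all 4 rows.

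The strongest peak of each gene was also missing when other pairs of ranked and thresholded lists were compared, although at tara that peak was not the same in every list. Presence in these lists was part of how the genes were chosen, so it is given as a description only. In the ranked list from pooled reads, 108 of 2812 peaks past the IDR threshold had no counterpart in the thresholded list from pooled reads (3.84%). The strongest peaks of the 4 genes were the same there, at ranks 5, 10, 19 and 115 for cbt, Lk6, larp and tara. For replicate 1 alone, 55 of 1251 peaks had no counterpart in its own thresholded list (4.4%), and for replicate 2 alone 59 of 1303 (4.53%). The strongest peak of cbt ranked 5th and 4th in replicates 1 and 2, that of Lk6 12th and 10th, and that of larp 18th and 20th. For tara the highest peak ranked 134th in replicate 1, where it was an intronic one, and 90th in replicate 2. Each of these was missing from the thresholded list of its replicate. Of the 24 peaks, 3 were in all 4 thresholded lists, a pair at larp and the one beyond the 3' end of tara. The thresholded lists of replicates 1 and 2 alone are shorter, with 1196 and 1244 peaks on the arms against 2516 in the conservative list. This limits how many peaks of any gene can be in all 4. The lists of both replicates and of pooled reads draw on the same libraries as those of the single replicates, and so add no further measurement to them.

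**Figure D3:**
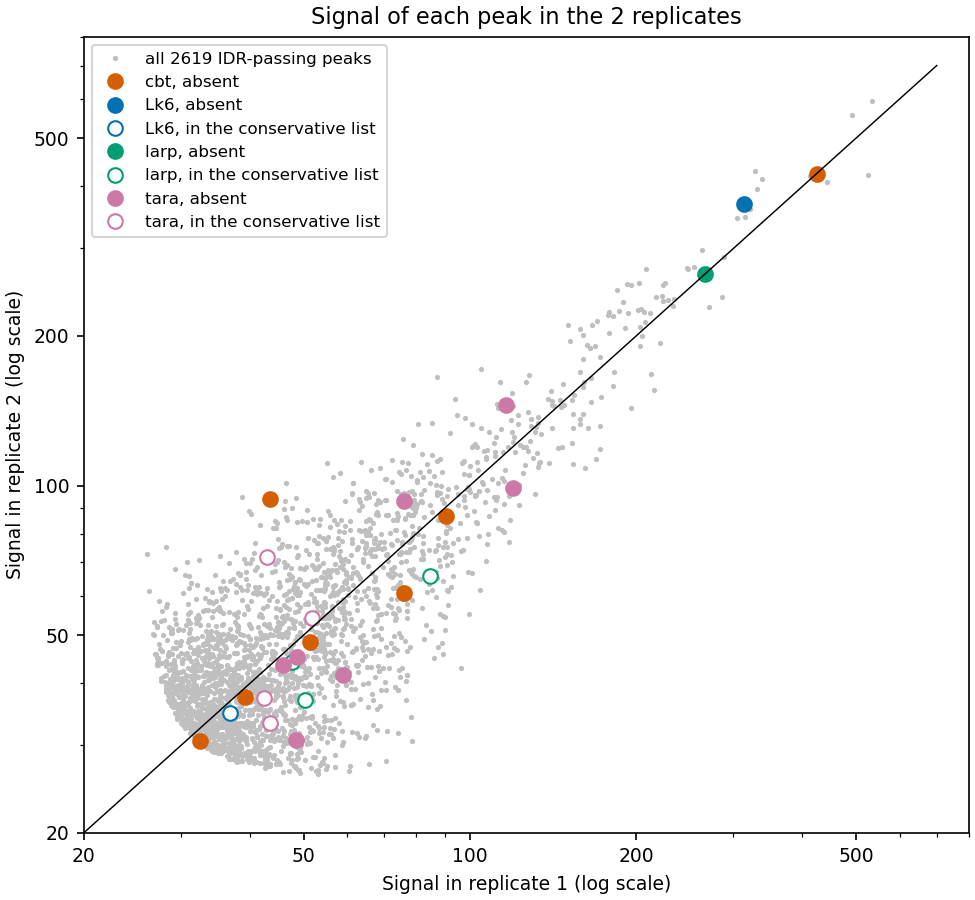
Signal of each peak in replicate 1 and replicate 2 (log axes, line of equality), with all 2619 peaks past the IDR threshold in grey, missing peaks filled and kept peaks open. The strongest peaks of cbt (425 and 424) and larp (267 and 267) lie on the line, and the peak of cbt at 43.5 and 94.1 lies farthest from it among the 24.

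The replicates gave like values for most of the 24 peaks. All 24 had passed the IDR threshold between these replicates, so this likeness is partly fixed by how they were chosen. The larger signal was 1.00 to 2.17 times the smaller, with a median of 1.16. Replicate 1 was the higher for 18 peaks and replicate 2 for 6. The matching counts over all 2619 peaks are not given here, so no lean of these genes is read from this. On the log2 scale, replicate 2 minus replicate 1 came to −0.08 at the median of the 24, with an SD of 0.39. The same values over all 2619 were 0.02 and 0.41. All 24 were present with both of their replicate values in the ranked lists of the replicates themselves. How many of all 2619 were is not given here, so no trait of the 24 is read from this. The 2 that shared their replicate 2 peak with another ranked peak were those with the widest gaps, 2.17-fold at cbt and 1.68-fold at tara, and whether the sharing sets the gap was not tested.

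Missing and kept peaks of the 4 regions overlapped in strength. The 16 missing peaks had combined signals from 55.8 to 823 with a median of 121, and the 8 kept ones from 63.1 to 137 with a median of 91.4. The −log10 IDR ran from 2.02 to 5, the highest value in the lists, for the former and from 2.40 to 3.68 for the latter. All 24 pass the IDR threshold, and the strongest peak of each gene is missing, by the way they were chosen. The higher top of the missing peaks is thus fixed, and their higher median is not read as a trait. Over the genome the median combined signal was 95.6 for missing and 84.6 for kept peaks. Of the 24, 19 were 290 bp wide, the widest that any peak of the list was, as were 2405 of all 2619, while the strongest peaks were 255, 217, 217 and 148 bp wide at cbt, Lk6, larp and tara.

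**Figure D4:**
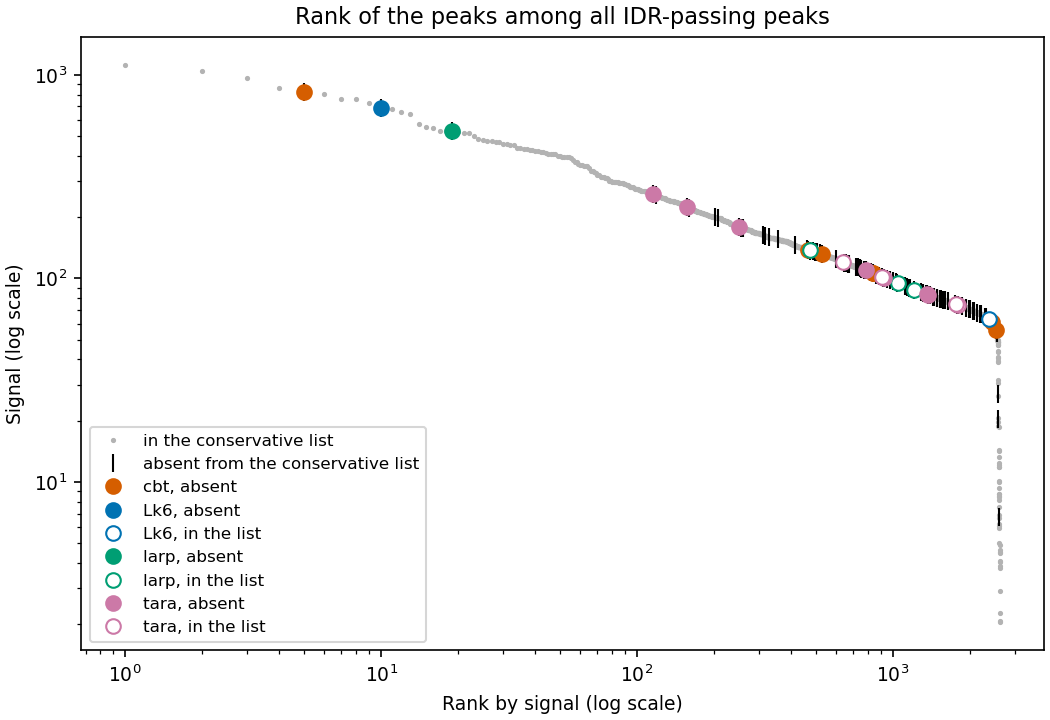
Combined signal against rank by signal (both log axes) for all peaks past the IDR threshold. Black ticks are peaks absent from the conservative list and coloured points are those of the 4 genes, filled where absent. The first 3 absent peaks are those of cbt, Lk6 and larp at ranks 5, 10 and 19, and the next is that of tara at rank 115.

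Over the genome the missing peaks were few and unevenly placed. Of the 20 strongest peaks 3 were missing, those of cbt, Lk6 and larp, and no further one was missing among the 100 strongest. By arm, 62 of 675 peaks on 3R (9.19%) and 32 of 510 on 2L (6.27%) were missing, the arms of the 4 genes, against 4 of 527 on 2R, 5 of 555 on 3L and 0 of 345 on X. Per the descriptions deposited with the files, each thresholded list names 1 more input file than the ranked lists do. What that file holds is not given in the sources used here, and its part in the missing peaks was not tested.

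Of the 13968 protein-coding genes, 3928 (28.1%) had a peak past the IDR threshold in the body or within 3 kb, 119 (0.852%) had one that was absent from the conservative list, and for 106 of the 3928 (2.7%) the strongest was absent. The gene most like the 4, by the signal of a peak missing from all 4 thresholded lists, was trx, which encodes the histone methyltransferase Trithorax. Its missing peak, with the summit within the gene (chr3R:14283826-14283949), ranked 119th, next to that of tara, with 132 and 131 in replicates 1 and 2 (131 ± 0.441, SD, n = 2). Next came a peak near CG6966 and CG42788 (chr3R:15095833-15095958), with 111 and 117 (114 ± 4.16), and the one near CG4297 described above (91.8 ± 6.74). A peak at isoQC, near CG5969 and CG32428 (chr3L:20474813-20474919), had 73.8 and 97.5. The histone demethylase gene Kdm2 held a missing peak of 91.9 and 82.1 (chr3R:9054791-9054862), close to Mst85C, and another of 93.1 and 65.6 (chr3R:9053068-9053357), close to Nmdmc. All 4 peaks in the regions of Kdm2 and Mst85C were missing, as at cbt.

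The remaining entries of this ranking were weaker. A peak 162 bp from a TSS of eIF4EHP, which encodes a cap-binding repressor of translation, had 90.2 and 71.8 (81.0 ± 13.0, SD, n = 2) and lies near CG13605, CG10694 and CG18428 as well. Peaks near Wdr81 and Rh5 (83.1 ± 5.94), near pont, Sirt6 and Nuak (72.5 ± 8.05) and 17 bp from a TSS of crp, near pkaap (74.5 ± 7.59), completed the 10. Apart from trx, the peaks of these genes had lower replicate means than the strongest peak of each of the 4 genes.

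The other genes of the pathways in which the 4 genes act are set beside all protein-coding genes, of which 3928 (28.1%) had a peak past the IDR threshold and 119 of these a missing one. Of 18 genes of cap-dependent translation and TOR signalling, the pathway in which Lk6 acts, 10 had a peak past the IDR threshold, and 2 had a missing one. These were eIF4EHP and eIF4A, the helicase of the cap-binding complex, whose single peak was low (34.1 ± 5.43, SD, n = 2). Kept peaks stood at Thor, the 4E-BP gene (46.5 and 86.6), at pAbp, the gene of the poly(A)-binding protein with which larp's product associates (69.2 and 74.6), and at eIF4E1, whose product Lk6's relatives phosphorylate (44.4 and 33.4). Of the other La-related genes, Larp4B had a kept peak (74.7 and 65.9), and La and Larp7 had none.

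For cbt, 3 of 10 other genes of KLF and Sp zinc finger factors had a peak, all kept, and the highest was at luna (55.5 and 89.0). Among 4 genes of sugar sensing (sug stands in this list and in the former), Mondo and bigmax, which encode the partners of the sugar-responsive factor, had kept peaks of 34.2 and 54.4 and of 55.8 and 40.8. Immediate early genes had peaks at 6 of 8, again all kept, led by Atf3 (133 and 137). For tara, 13 of 20 Polycomb and trithorax group genes had a peak and 1 of them, trx, a missing one. The kept ones were led by ash1, a histone methyltransferase gene whose peak ranked 2nd of all 2619 (491 and 556), and ph-p, which encodes a subunit of a Polycomb repressive complex (304 and 345). Trl, which encodes the GAGA factor (205 and 200), osa, the gene of a subunit of the SWI/SNF complex (159 and 207), and brm, that of its ATPase (160 and 180), came next. Peaks as high as those of the 4 genes were thus kept at other genes of the list. Of 5 genes tied to tara in sleep and the cell cycle, Cdk1 (48.5 and 43.5) and qvr (31.1 and 41.4) had kept peaks. No test of these counts was made.

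**Figure D5:**
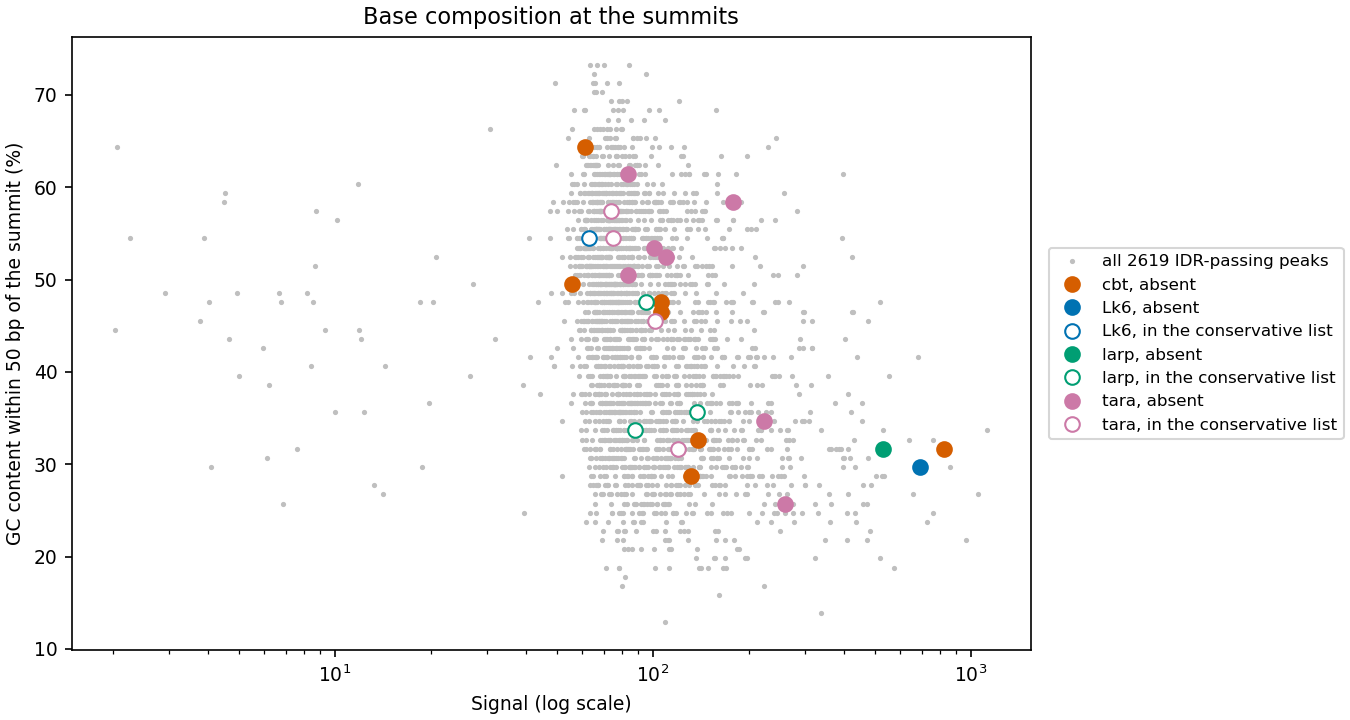
GC content of the 101 bp around each summit against combined signal (log axis), for all 2619 peaks in grey and the 24 peaks in colour, filled where missing from the conservative list. The strongest peaks of the 4 genes lie between 25.7% and 31.7% GC, under the median of 44.6%.

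The summits of the strongest peaks, shown above, were rich in A and T. GC content within 50 bp of the summit was 31.7% at cbt, 29.7% at Lk6, 31.7% at larp and 25.7% at tara. All 4 lay under the median of 44.6% over the 2619 peaks and near that of the 20 strongest, 30.7%. The 20 strongest include those of cbt, Lk6 and larp themselves. The other peaks of the 4 regions ran from 28.7% to 64.4%, and the 16 missing and 8 kept peaks had medians of 47.0% and 46.5%. Of the kept peaks, the intronic one of tara printed above was as low as those of cbt and larp, at 31.7%.

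No 31-base word in any of the 24 peaks occurred more than once on either strand of the reference assembly, scaffolds included. Over the genome, 53 of the 2619 peaks (2.02%) held at least 1 such repeated word, and among the 103 missing peaks it was 6 (5.83%). The peaks of the 4 genes thus lie in sequence that is unique at this length.

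Among 9 motifs looked for on either strand, up to 50 bp from a summit, GAGAG, the core of the site of the GAGA factor, was the most common. It was present at 5 of the 24 summits and at 15.4% of all 2619. These 5 were missing peaks, 2 at cbt (365 bp upstream and 623 bp downstream of the TSS) and 3 in introns of tara, none of them the strongest of its gene. Its shares among all missing and all kept peaks are not given here, so no tie of GAGAG to missing peaks is read from this. TGACTCA, the site of AP-1 factors, was present at 1 summit, that of cbt 981 bp upstream of the TSS, and at 1.30% of all. The strongest summit of tara held AAAAAAAA (4.20% of all) and CAGGTAG, the site of the early embryonic activator Zelda (0.496% of all). CACACACA, TATCGATA, CACGTG, GGGTGTGGC and GGTCACACT were at none of the 24, and at 2.79%, 1.53%, 1.11%, 0.0764% and 0.42% of all. None of the 9 was within 50 bp of the strongest summits of cbt, Lk6 and larp, although GAGAG occurred 3 times, 2 of these overlapping, elsewhere in the peak of Lk6. Between the strongest summits, no word of 8 bases was shared by more than a pair, and only 2 words by a pair, AAAAGAAA by cbt and larp (2.48% of all windows) and ATATGAAA by Lk6 and tara (1.60%). A match of letters is a description and does not show that a factor binds there.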

How the data were processed

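Peak lists from 2 biological replicates were used as the authors deposited them, on assembly dm6 per the labels. Aligner, peak caller and versions are not given in the sources used here. The signal of a peak is the deposited value of the peak caller, on a scale that is not stated, and was used only to describe and rank peaks. Peaks were filtered at 2 on −log10 IDR as the authors deposited it. All peaks of the 4 thresholded lists passed that filter in the ranked lists.

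The replicate of the 2 unnamed signal columns was settled by peaks equal in interval and signal to the own list of a replicate (106479 and 107258 of 136703, with 0 for the other replicate). Genes and TSSs came from Ensembl release 115 and sequence from RefSeq release 6; the 4 genes had equal coordinates in both. A peak belonged to a gene when its summit lay in the body or within 3 kb. A counterpart overlapped by at least 1 bp. The match was checked on simulated data. Positions are 1-based. Python 3.11.15, numpy 2.4.6 and pandas 2.3.3 were used.

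The members and lists were chosen with earlier results of these data known. Named were the 4 genes with all their peaks, the genes that reach into their regions, the 10 other entries with the strongest peak missing from all 4 lists, and, from the pathway lists, genes with a peak. The 31-base words and the values of peaks outside the regions were chosen after seeing the data. With 1 group and 2 replicates no comparison between conditions was made. Alternatives were the pooled list, each replicate alone, a −log10 IDR of 3, flanks of 0 and 1 kb, equal intervals and summits within 100 bp.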

Additional observations from a re-analysis of the deposited data

How the results depend on the processing

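Of 106 values under alternatives, 77 stayed within the spread allowed for them (1 SD of the replicates for signal and rank, 1.5 times for counts) and 29 moved. Some of the 77 could not move. With 2 replicates, either signal of a peak lies within 1 SD of their mean. The strongest peaks, at a −log10 IDR of 4.61 or more, also pass at 3. The count of 77 is thus no measure of stability. The strongest peak of each gene was missing from the thresholded list under every alternative run, although at cbt and tara it was not always the same peak. Missing counterparts were part of how the genes were chosen, so nothing is read from this. With equal intervals or summits within 100 bp in place of overlap, no value moved. Every thresholded peak had the same interval as a ranked peak past the IDR threshold. The change of rule could thus hardly move a count. No paired analysis was possible because there is a single group.

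With either replicate left out, the number of reproducible peaks was 1 and 1 at Lk6 and 7 and 7 at tara, the number kept was 0 and 0 at Lk6 and 1 to 2 at tara, the rank of the strongest peak was 4 to 5 at cbt and 10 to 12 at Lk6, and the number missing over the genome was 55 to 59. In each case a single list with its own IDR stands for the pair.

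At a −log10 IDR of 3 the number of peaks was 1 at Lk6, 2 at larp and 5 at tara, with 0, 1 and 2 kept, and 45 were missing over the genome. The pooled list gave no value for the mean signal, as its input columns name no replicate and were not used.

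The flank decides which peak is the strongest by combined signal at cbt and tara, since those lie upstream of the gene. The values here are means of the replicates, to be set against 424 at cbt and 131 at tara with 3 kb. With the body alone cbt had 3 peaks, and the one with the highest combined signal had a mean of 49.9 (rank 833). For tara, 2 of the peaks in the body were in the conservative list, and the one with the highest combined signal had a mean of 109 (rank 157). With 1 kb, the means were 68.8 (rank 464) at cbt and 109 (rank 157) at tara, although at cbt another peak within 1 kb had the higher mean, 88.8. Lk6 and larp kept their strongest peak. Depth is unknown, so its limits could not be set.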
